A study of Mus musculus with 12 samples.

Results

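The genes of sterol and fatty acid synthesis that the SREBP transcription factors are known to drive were followed through 12 RNA sequencing libraries of macrophages that were raised from mouse bone marrow with macrophage colony-stimulating factor. The set has 37 members, chosen by symbol from a list of the pathway's enzymes and regulators, out of 54446 genes in the deposited table. Each symbol matched 1 row, and all 37 members passed the filter on low counts. All animals carried loxP-flanked Nlrc3 alleles (NLRC3 fl/fl). The animals called WT had no Cre, and those called KO (NLRC3ΔMac) carried LysM-Cre, a recombinase driven by a promoter that is active in myeloid cells. Macrophages of each genotype stayed in RPMI 1640 medium or were treated with lipopolysaccharide (LPS), a bacterial ligand of Toll-like receptor signalling, for 12 h. This gave 4 labelled groups of 3 libraries each, WT medium, WT LPS, KO medium and KO LPS. The animals' age is not given in the sources used here, and the labels leave unstated whether each replicate is an animal of its own. The p-values therefore reflect spread among these libraries, part of which may be technical.

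As background, SREBP proteins are made as membrane-bound precursors that the escort protein SCAP carries from the endoplasmic reticulum to the Golgi, where proteases free the transcription factor. When sterols are plentiful, INSIG proteins hold SCAP back and the program is turned down. SREBP2 mainly drives the genes from acetyl-CoA to cholesterol, and SREBP1, itself a target of the oxysterol-sensing LXR receptors, mainly drives the genes that make and desaturate fatty acids. Macrophages exposed to bacterial ligands are known to remodel both branches.

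The promoters of 3 members show what sequence lies at the start of members described below, 1 that was not called and 2 that were. The RefSeq promoter table (GRCm38.p6, the build called mm10; 250 bases before to 50 after each start) held 40 promoters of 30 members. Sqle, Fdps, Scd1, Scd2, Fads1, Fdft1 and Stard4 are not among them. Searched on both strands, the sterol regulatory element core TCACNCCAC, a sequence that SREBP is known to bind, lay in 1 of the 40 (2.5%) and in 1.24% of all 32851 promoters of the same length. The CCAAT box (CCAAT), bound by NF-Y, a known partner of SREBP, lay in 25 of 40 (62.5%) against 37.4% of all promoters and 38.2% of those of protein-coding genes. The GC box (GGGCGG) lay in 29 of 40 (72.5%) against 35.7% and 46.2%. Capitals mark any of these motifs on either strand. Hmgcs1 holds the 1 match to the sterol element (TCACCCCAC, starting 137 bases before the transcription start) but was not called in the main edgeR fit. It is at chr13:119690101-119690400 on the plus strand. Fasn, the member with the smallest p, is at chr11:120824498-120824797 on the minus strand, and Lss, the called cyclase, at chr10:76531355-76531654 on the plus strand.
Hmgcs1: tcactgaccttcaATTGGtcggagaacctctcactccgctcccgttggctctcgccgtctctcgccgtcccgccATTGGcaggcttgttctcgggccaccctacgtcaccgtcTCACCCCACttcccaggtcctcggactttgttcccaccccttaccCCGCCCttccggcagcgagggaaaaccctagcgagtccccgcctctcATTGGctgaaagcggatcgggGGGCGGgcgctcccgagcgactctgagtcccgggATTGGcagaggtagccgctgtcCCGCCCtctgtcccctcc
Fasn: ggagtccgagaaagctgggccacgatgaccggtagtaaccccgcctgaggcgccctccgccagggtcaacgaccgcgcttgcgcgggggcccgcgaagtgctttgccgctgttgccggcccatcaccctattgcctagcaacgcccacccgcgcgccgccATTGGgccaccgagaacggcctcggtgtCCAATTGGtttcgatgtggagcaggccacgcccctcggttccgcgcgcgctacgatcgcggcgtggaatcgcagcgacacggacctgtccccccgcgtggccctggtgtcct
Lss: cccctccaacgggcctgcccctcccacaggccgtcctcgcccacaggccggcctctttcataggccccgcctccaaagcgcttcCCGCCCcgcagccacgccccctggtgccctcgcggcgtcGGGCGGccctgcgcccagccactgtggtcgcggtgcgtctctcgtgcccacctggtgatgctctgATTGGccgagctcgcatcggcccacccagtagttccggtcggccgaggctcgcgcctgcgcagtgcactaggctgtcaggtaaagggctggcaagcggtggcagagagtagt
A match is a run of letters and not a shown binding site, and the absence of one in this window says nothing of elements outside it.

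Library totals lay between 13082947 and 20960505 counts. Levels are given as CPM, counts relative to a library total that was scaled by trimmed-mean (TMM) factors, the scale on which the tests were run; library values stand in the order of replicates 1, 2 and 3. Those factors lay between 1.10 and 1.46 in WT medium, 0.765 and 1.02 in WT LPS, 0.702 and 0.791 in KO medium and 1.20 and 1.24 in KO LPS, so scaling matters here. The targeted gene did not follow all labels. Nlrc3 had levels of 7.31, 12.3 and 7.10 CPM in the 3 libraries of WT medium and 1.04, 4.32 and 1.71 CPM in WT LPS 1 to 3. Its levels were 1.42, 1.21 and 1.11 CPM where the label is KO medium and 12.95, 6.69 and 4.91 CPM where it is KO LPS. The LPS-responsive gene Nos2 was at 818 to 3306 CPM in WT LPS and 1635 to 3862 CPM in the libraries labelled KO medium, against 0.560 to 5.72 CPM in the other 6 libraries. Every direction that involves the KO is therefore that of libraries labelled so. Xist marked 5 libraries as female (WT medium 1 and 3, WT LPS 2, KO LPS 2 and 3) and Y-linked counts marked 7 as male, among them all 3 labelled KO medium. Macrophage markers (Adgre1, Csf1r, Cd68, Itgam, Mertk, Fcgr1 and Lyz2) summed to 23329 to 30996 CPM in WT medium, 13698 to 23367 in WT LPS, 11175 to 16855 in KO medium and 16984 to 27436 in KO LPS. The 6 adipocyte markers, of a cell type in which much of this program is active, were near 0, with no single value above 0.303 CPM. Neutrophil markers (8 genes) summed to 610.1 to 838 CPM in WT medium, 1248 to 5343 in WT LPS, 1549 to 3922 in KO medium and 912.7 to 5582 in KO LPS. B lineage markers (6 genes) summed to at most 63.7 CPM, in a library labelled KO LPS. For stromal markers (6 genes) the sums were 43.3 to 80.3, 49.2 to 321, 55.6 to 161 and 22.4 to 64.4 CPM in the same order, and for 4 dendritic markers 1.87 to 5.38, 14.6 to 31.5, 13.4 to 26.6 and 5.82 to 32.2 CPM. Between WT LPS and WT medium, 2 of the 8 neutrophil, 1 of the 6 stromal and 1 of the 4 dendritic markers were called higher. The same numbers were higher in KO medium than in WT medium. In KO LPS, 3 neutrophil, 2 B lineage and 1 dendritic marker were higher than in WT LPS and than in KO medium, and 3 stromal markers were lower than in WT LPS and 1 than in KO medium. Of the macrophage markers, 1 was higher with LPS in WT, and 1 was higher and 1 lower in each of these other comparisons. The part of these other cells in the results was not tested, and in bulk samples fewer cells of a type and less RNA per cell cannot be told apart.

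**Figure D1:**
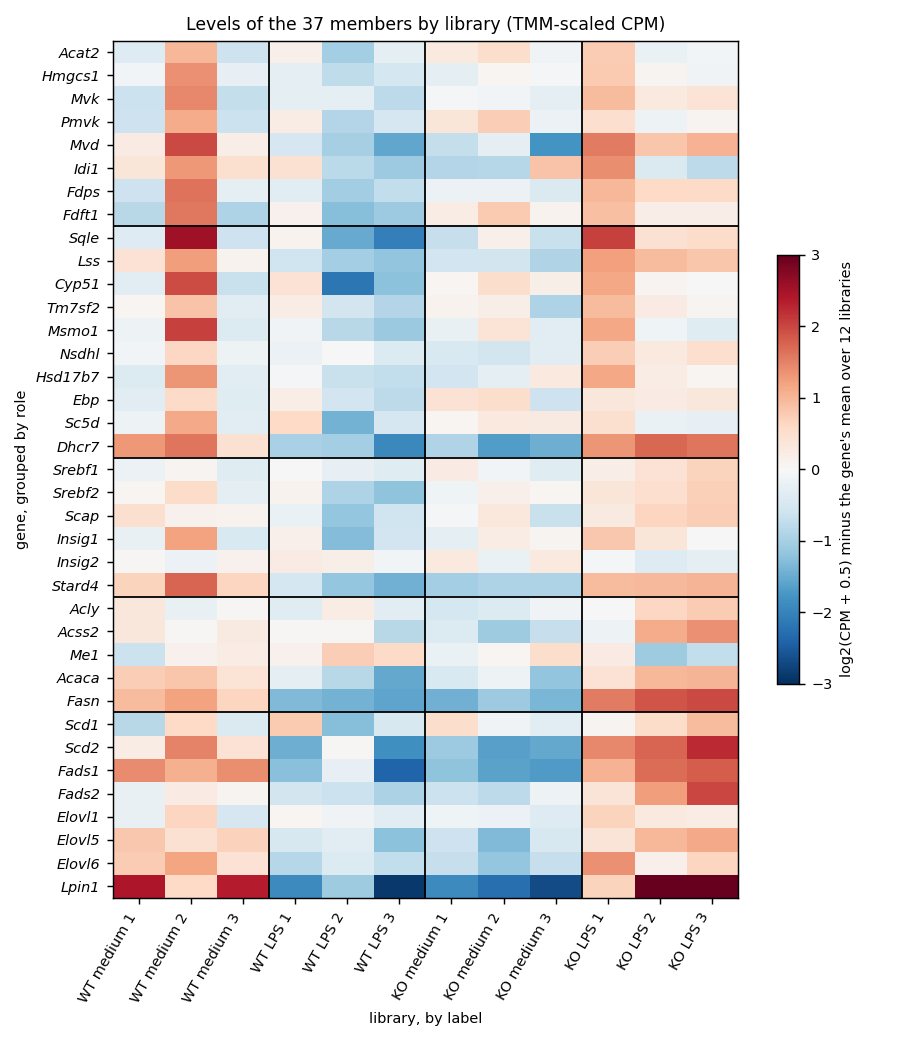
Each row is a member, each column a library; colour is log2(CPM + 0.5) minus the gene's mean over the 12 libraries, limited to 3 in either direction, with black lines between label groups and between roles. Lss, Dhcr7, Stard4, Fasn, Scd2, Fads1, Elovl5 and Lpin1 are blue in WT LPS and KO medium except for near-white Scd2 in WT LPS 2, while most sterol enzymes are reddest in WT medium 2 and KO LPS 1.

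In WT macrophages, part of the program was lower with LPS. Of the 37 members, 11 fell and 0 rose, namely Mvd, Lss and Dhcr7 of the sterol branch, the sterol carrier Stard4, and Acaca, Fasn, Scd2, Fads1, Elovl5, Elovl6 and Lpin1 of the lipid branch (29.7% of members lower). Over all 13773 genes tested, 6.46% were called lower. The median log2 fold of the members was -0.96, against -0.06 for all genes. Without WT medium 2 these medians were -0.41 and 0.01. In the libraries labelled KO the order was the opposite. Set against KO medium, KO LPS had 15 members higher and 0 lower, beside 15.1% of all genes called higher, with a median log2 fold of 0.74 for the members and 0.04 for all genes. These 2 comparisons share no library. All 11 members that fell in WT were among the 15 that were higher in labelled KO LPS (100% of the former, 73.3% of the latter), the other 4 being Nsdhl, Acly, Acss2 and Fads2. The same overlap over all genes was not counted, so it is not shown to be particular to the members. WT medium 2 and KO LPS 1 stood apart from their groups in the sterol genes and in 3 of the 7 macrophage markers, as described further on. Without both, 9 members were lower with LPS in WT, beside 11% of all genes. Between KO LPS and KO medium 15 were then higher and 1 lower, beside 20.8% and 22.5% of all genes.

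The count of 11 in WT became 6 without WT LPS 3, beside 2.21% of all genes called lower. Scaling by library size only made it 23, beside 23.2% of all genes called lower and a median of -0.64 over all genes. DESeq2 made it 15, beside 11.1% of all genes called lower. With no filter on low counts it was also 15, beside 3.77%. Of these 11 calls, 6 (Lss, Dhcr7, Stard4, Fasn, Fads1 and Lpin1) held under every alternative run. Elovl6 was lost without WT LPS 1 or 3 (adjusted p = 0.0566 and 0.0689), Acaca without WT LPS 3 (0.0541), Elovl5 without WT medium 1 or WT LPS 3 (0.0594 and 0.0563), and Mvd without WT medium 2, WT LPS 2 or WT LPS 3 (0.0723, 0.0512 and 0.0995). Scd2 was lost without WT medium 2 or 3, WT LPS 1 or 3, KO medium 1 or KO LPS 2, with adjusted p between 0.0504 and 0.137 (all edgeR quasi-likelihood, Benjamini-Hochberg adjusted). A fit on the compared groups only also ended the calls of Scd2 (0.113) and Mvd (0.0584).

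**Figure D2:**
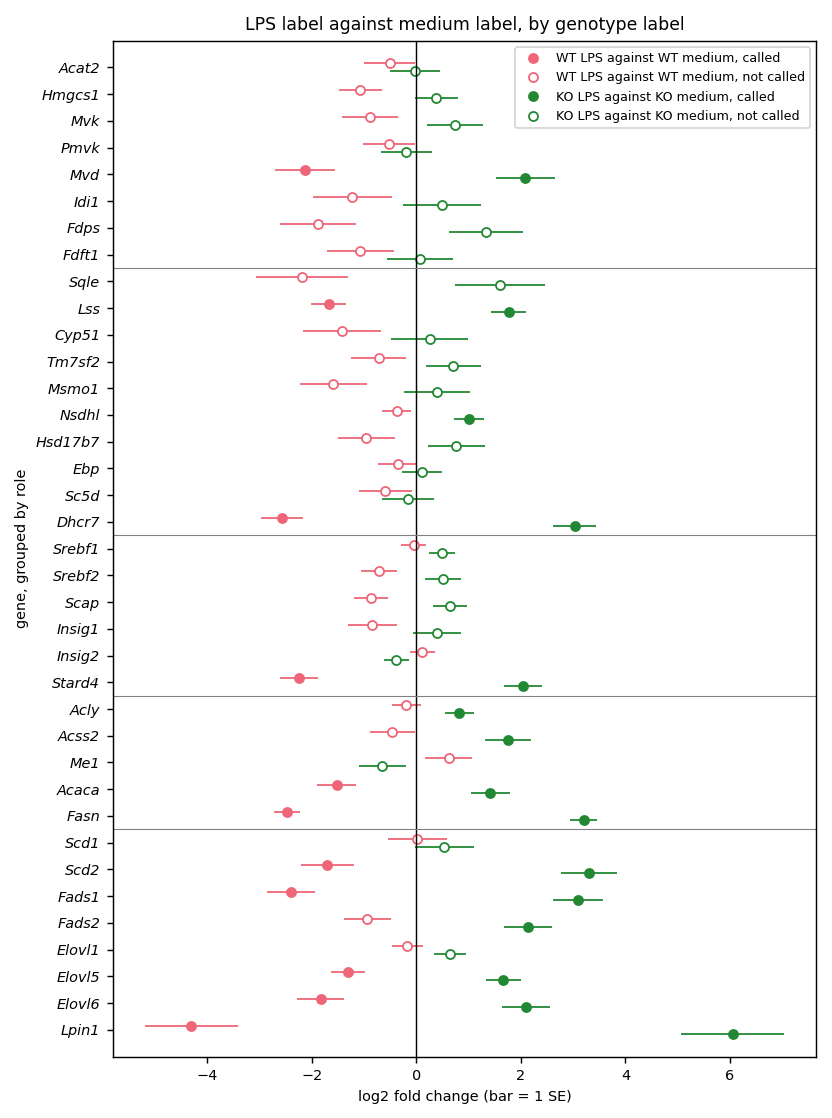
Log2 fold changes of the LPS label against the medium label for each member (horizontal axis, bars of 1 SE), in libraries labelled WT (red) and labelled KO (green); filled points were called. The 11 filled red points lie left of 0 and the 15 filled green points lie right of it.

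The mevalonate arm turns acetyl-CoA into squalene, and 1 of its 8 members was called in the main edgeR fit. Mvd, the decarboxylase that makes isopentenyl diphosphate (chromosome 8, 122433601 to 122443422 of mm10), stood at 12.3, 42.8 and 11.9 CPM in WT medium and 7.21, 4.93 and 3.20 CPM in WT LPS. It was at 6.13, 8.38 and 2.64 CPM in KO medium and 31.8, 18.8 and 22.1 CPM in KO LPS. The WT medium and WT LPS ranges did not overlap, nor did those of the libraries labelled KO, and WT medium 2 was the highest library, followed by KO LPS 1. Mvd fell by 2.13 ± 0.57 (log2 fold ± SE, edgeR quasi-likelihood, adjusted p = 0.0221) with LPS in WT and was higher in KO LPS than in KO medium (0.0169), a call that ended without KO medium 1 or 3 (0.0593 and 0.0627). Without WT medium 2 the fold in WT was -1.31 (0.0723).

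The other 7 enzymes of the arm were not called in any of the 6 pairwise comparisons of the main edgeR fit. DESeq2 called Fdps (adjusted p = 0.041) and Hmgcs1 (0.0428) lower with LPS in WT, and Fdps higher in KO LPS than in WT LPS (0.0191). With no filter on low counts Hmgcs1 was also called lower with LPS in WT (0.0393, edgeR). Acat2, which joins acetyl-CoA units, had group means of 10.7 ± 7.37, 7.57 ± 3.11, 11.4 ± 2.53 and 11.1 ± 4.49 CPM in WT medium, WT LPS, KO medium and KO LPS (SD, n = 3 each). Hmgcs1, the synthase that makes HMG-CoA, had means of 67.2 ± 45.6, 32.02 ± 5.41, 43.3 ± 4.94 and 56.5 ± 19.4 CPM in that order. For the kinases, the means were 10.3 ± 9.91, 5.56 ± 1.15, 7.04 ± 0.651 and 11.8 ± 3.09 CPM (Mvk) and 18.5 ± 14.4, 12.8 ± 5.38, 20.7 ± 6.54 and 18.1 ± 4.34 CPM (Pmvk). In all 4 genes the SD of WT medium was large beside its mean, and WT medium 2 was the highest library of that group. Idi1, the isomerase of isopentenyl diphosphate, ranged from 1.49 to 10.5 CPM over the 12 libraries. Fdps, which makes farnesyl diphosphate, was low at 0.329 to 4.79 CPM, and whether it shares reads with near-identical copies was not examined. Fdft1, squalene synthase, was at 11.2, 62.2 and 10.6 CPM in WT medium and 22.5, 8.18 and 9.29 CPM in WT LPS, so the groups overlapped. The Fdft1 gene overlaps the cathepsin gene Ctsb on the opposite strand, and whether strand was used in counting is not given in the sources used here, so its level is uncertain. An annotated gene on the opposite strand also overlaps Mvd, Lss, Cyp51, Elovl1, Srebf1, Acss2, Acaca, Elovl6, Scap, Hmgcs1, Idi1, Insig2 and Me1, and Vps51 overlaps Tm7sf2 on the same strand, so their counts carry the same doubt.

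Of the 10 enzymes from squalene to cholesterol, Lss and Dhcr7 were called with LPS in WT. Dhcr7, which makes cholesterol from its last precursor of the Kandutsch-Russell branch (chromosome 7, 143823145 to 143848410), was at 24.9, 31.01 and 13.7 CPM in WT medium and 4.78, 4.65 and 2.23 CPM in WT LPS. The libraries labelled KO had 5.03, 2.72 and 3.24 CPM in medium and 25.3, 33.96 and 30.95 CPM in LPS. WT medium and KO LPS were thus the high groups, WT LPS and KO medium the low ones, with no overlap between high and low. It fell by 2.57 ± 0.40 in WT (adjusted p = 0.00121) and was higher by 3.03 ± 0.41 in KO LPS than in KO medium (3.9e-04, edgeR).

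Lss, the cyclase that forms lanosterol (chromosome 10, 76531588 to 76557138), stood at 13.7, 24.2 and 10.7 CPM in WT medium and 6.42, 4.65 and 4.09 CPM in WT LPS. The libraries labelled KO medium had 6.45, 6.66 and 5.03 CPM and those labelled KO LPS 24.02, 19.7 and 17.98 CPM. The same groups were high and low as for Dhcr7, again without overlap. Its fall in WT was a log2 fold of -1.68 ± 0.34 (adjusted p = 0.00531), and in the libraries labelled KO the fold was 1.77 ± 0.34 (0.00267, edgeR). Nsdhl, a dehydrogenase of sterol demethylation, was at 8.57, 7.97 and 9.55 CPM in KO medium and 20.4, 14.9 and 17.1 CPM in KO LPS, a called difference (adjusted p = 0.0185, edgeR), lost without KO medium 1 or 2 (0.0689 and 0.0668). In WT, Nsdhl was at 11.3, 18.8 and 10.8 and 10.5, 12.1 and 8.92 CPM without and with LPS, and those ranges overlapped.

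The other 7 of these enzymes were not called between label groups in the main edgeR fit. DESeq2 called Msmo1 lower with LPS in WT (adjusted p = 0.0413). With no filter on low counts Sqle, Cyp51 and Msmo1 were called lower there (0.00294, 0.0332 and 0.00896, edgeR). Sqle, the epoxidase that is a known control point of the pathway, was at 13.4, 105 and 11.3 CPM in WT medium and 19.01, 5.87 and 3.87 CPM in WT LPS. Its LPS fold in WT was -2.18 ± 0.88 with adjusted p = 0.107 (edgeR). Cyp51, the lanosterol demethylase, was at 26.8, 134 and 21.3 CPM and 46.6, 7.28 and 14.4 CPM in the same groups (-1.42 ± 0.75, adjusted p = 0.22, edgeR). Msmo1, the methyl oxidase of a later step, was at 40.6, 189.7 and 33.8 CPM and 41.9, 25.1 and 20.7 CPM (-1.59 ± 0.64, 0.107). In these 3 genes WT medium 2 was above every other library. The sterol reductase Tm7sf2 ranged from 1.28 to 6.03 CPM over all libraries. Hsd17b7, the ketone reductase of the same series, ranged from 2.83 to 13.5 CPM. Ebp, the sterol isomerase, lay between 21.2 and 55.6 CPM, and Sc5d, the desaturase before Dhcr7, between 10.5 and 63.6 CPM.

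**Figure D3:**
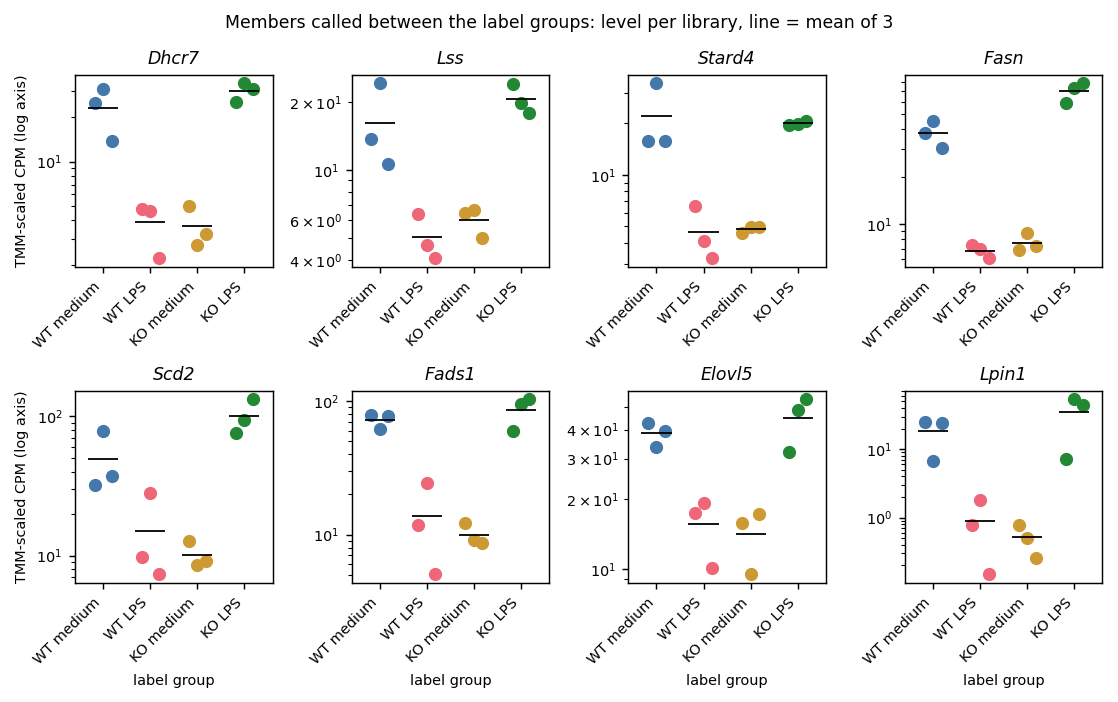
Level of 8 called members in every library (points, log axis in TMM-scaled CPM) by label group, with a line at the mean of 3. The members were picked from those called between these groups, so separation of the groups follows in part from that choice. In all 8 panels every WT LPS and KO medium library lies below every WT medium and KO LPS library; they are closest in the Scd2 panel, with WT LPS 2 (28.2 CPM) close to WT medium 1 (32.4 CPM).

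Of the 6 regulators and carriers, the main edgeR fit called Stard4 with LPS in WT, and Srebf2 and Scap between other groups. Srebf2, which encodes SREBP2, was at 75.2, 106 and 59.6 CPM in WT medium, 77.7, 37.6 and 31.1 CPM in WT LPS, 65.3, 80.1 and 75.2 CPM in KO medium and 92.9, 103 and 118 CPM in KO LPS. The WT groups overlapped, whereas KO LPS lay above WT LPS in every library and was called higher (adjusted p = 0.0365, edgeR). The Srebf2 call ended without WT medium 1, WT LPS 2 or 3, or KO LPS 2 or 3, with adjusted p between 0.0514 and 0.132, and in a fit on the compared groups only (0.0776). Scap, the escort protein, was at 43.2, 34.1 and 33.5, 27.1, 13.5 and 20.2, 29.96, 38.8 and 19.2 and 37.6, 48.3 and 51.6 CPM in the 4 groups in that order. The WT ranges of Scap did not overlap, but its fall with LPS was not called in the main edgeR fit. DESeq2 called that fall (adjusted p = 0.0292). So did edgeR with upper-quartile factors (0.0317), by library size only (0.00466), without KO medium 3 (0.0395) and without WT LPS 1 (0.0481). Scap too was higher in KO LPS than in WT LPS (adjusted p = 0.0204, edgeR), a call lost without WT LPS 2 or 3 or KO LPS 2 or 3 (0.0549 to 0.0709). Srebf1, which encodes SREBP1, stayed between 28.3 and 59.2 CPM in all 12 libraries, and its LPS fold in WT was -0.05 ± 0.25 (adjusted p = 0.906, edgeR).

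Of the INSIG pair, Insig1, itself a known SREBP target, was at 33.5, 90.9 and 28.7 CPM in WT medium and 43.6, 15.7 and 26.3 CPM in WT LPS, with overlapping groups. Insig2 was the flattest of the regulators, between 14.1 and 22.8 CPM over all libraries. Stard4, a carrier of cholesterol between membranes and also a known SREBP2 target, was the regulator-group member called in WT by the main edgeR fit. It stood at 15.8, 34.1 and 15.7 CPM in WT medium and 6.60, 4.09 and 3.27 CPM in WT LPS. The libraries labelled KO medium had 4.56, 4.94 and 4.94 CPM and those labelled KO LPS 19.6, 19.8 and 20.4 CPM. The 3 values within each labelled KO group were close together, and the gap between those groups was wide. Stard4 fell by 2.23 ± 0.36 in WT (adjusted p = 0.0016) and was higher by 2.05 ± 0.36 in KO LPS than in KO medium (0.00179, edgeR).

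Fatty acid synthesis starts from citrate and acetate. Fasn, the synthase that builds palmitate (chromosome 11, 120805846 to 120824547), had the smallest adjusted p of all members in each of the 4 pairwise comparisons with calls. It was at 37.98, 45.4 and 30.4 CPM in WT medium and 7.38, 6.91 and 6.10 CPM in WT LPS. The libraries labelled KO medium had 6.84, 8.78 and 7.24 CPM and those labelled KO LPS 58.5, 73.3 and 78.4 CPM. All 6 libraries of WT LPS and KO medium lay between 6.10 and 8.78 CPM, and the other 6 between 30.4 and 78.4 CPM. Fasn fell by 2.48 ± 0.25 with LPS in WT (adjusted p = 9.1e-05) and was higher by 3.20 ± 0.26 in KO LPS than in KO medium (1.9e-05, edgeR).

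Acaca, the carboxylase that makes malonyl-CoA for Fasn, was at 24.4, 26.3 and 19.5 CPM in WT medium and 11.8, 7.94 and 4.68 CPM in WT LPS, a fold of -1.52 ± 0.37 (adjusted p = 0.0147, edgeR). In KO medium it was at 10.5, 12.9 and 6.05 CPM and in KO LPS at 19.6, 29.2 and 29.6 CPM. The high and low groups again did not overlap; the labelled KO call ended without KO medium 3 or KO LPS 2 (0.0531 and 0.0515). Acly, which cleaves citrate to acetyl-CoA, was at 132, 89.3 and 108 CPM in WT medium and 80.7, 123 and 84.5 CPM in WT LPS, and these overlapped. Its difference between KO LPS (103, 161 and 178 CPM) and KO medium (72.6, 79.02 and 97.6 CPM) was called at adjusted p = 0.0448 (edgeR), but 9 of the 12 fits that left out a library lost it (0.0514 to 0.158), and the fits with sex as a term and with no filter on low counts lost it too (0.177 and 0.0855), as did a fit on the compared groups only (0.067). Acss2, which activates acetate, had overlapping levels of 6.66, 5.27 and 6.31 CPM in WT medium and 5.30, 5.31 and 2.68 CPM in WT LPS. It was at 3.77, 2.22 and 2.98 CPM in KO medium and 4.56, 11.8 and 14.1 CPM in KO LPS and was called higher in the latter (adjusted p = 0.0114, edgeR), a call lost without KO LPS 3 (0.0521) and with sex as a term (0.0615). Me1, the malic enzyme that yields NADPH, had an estimate of 0.62 ± 0.45 in WT and -0.65 ± 0.45 in the libraries labelled KO, and neither was called. Without KO LPS 1, Me1 was lower in KO LPS than in KO medium (-1.23, adjusted p = 0.0429) and than in WT LPS (-1.61, 0.0175, edgeR).

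The 8 genes of desaturation, elongation and phosphatidate dephosphorylation held 5 of the 11 falls in WT. Fads1, the desaturase that forms arachidonic acid (chromosome 19, 10182888 to 10196877), was at 77.9, 61.6 and 77.5 CPM in WT medium and 11.9, 24.3 and 5.06 CPM in WT LPS. In KO medium it was at 12.2, 9.18 and 8.61 CPM and in KO LPS at 59.8, 94.2 and 103 CPM. The 6 low libraries reached at most 24.3 CPM and the 6 high ones at least 59.8 CPM. The log2 folds were -2.39 ± 0.46 in WT (adjusted p = 0.00435) and 3.10 ± 0.48 in the libraries labelled KO (8.5e-04, edgeR). Its partner Fads2, the desaturase of the preceding steps, was at 2.20, 3.19 and 2.84 CPM in WT medium and 1.65, 1.504 and 1.12 CPM in WT LPS. These ranges did not overlap, but the difference was not called (-0.94 ± 0.45, adjusted p = 0.174, edgeR). In KO medium it was at 1.49, 1.31 and 2.30 CPM and in KO LPS, the highest group, at 3.62, 6.99 and 12.03 CPM. KO LPS was higher than KO medium by 2.14 ± 0.46 and than WT LPS by 2.40 ± 0.46 (adjusted p = 0.0049 and 0.00354, edgeR).

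Scd2, a stearoyl-CoA desaturase (chromosome 19, 44293674 to 44306864), was at 32.4, 78.5 and 37.5 CPM in WT medium and 9.81, 28.2 and 7.36 CPM in WT LPS. KO medium had 12.7, 8.58 and 9.21 CPM and KO LPS 75.9, 93.8 and 132 CPM. WT LPS 2 was the highest of the low libraries, and also the WT LPS library with the lowest Nos2. Scd2 fell in WT (adjusted p = 0.035), and its fold between the labelled KO groups was 3.30 ± 0.54 (0.00109, edgeR). Its paralog Scd1 behaved otherwise, at 3.33, 9.85 and 4.60 CPM in WT medium and 11.3, 2.35 and 4.39 CPM in WT LPS, with an estimate of 0.02 ± 0.57 (adjusted p = 0.988); that the paralogs differ in response was not tested, and reads of such similar genes can be split uncertainly.

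Elovl5, which elongates polyunsaturated fatty acids, was at 42.7, 33.8 and 39.4 CPM in WT medium and 17.5, 19.3 and 10.1 CPM in WT LPS, and at 15.7, 9.49 and 17.3 and 31.9, 48.9 and 54.1 CPM in KO medium and KO LPS. Elovl6, which elongates palmitate to stearate, was at 3.67, 5.06 and 2.84 CPM and 0.868, 1.36 and 0.967 CPM in the WT groups and at 1.02, 0.606 and 1.02 and 5.87, 2.24 and 3.36 CPM in the labelled KO groups. Both had non-overlapping groups in the pattern of Fasn, with log2 folds of -1.31 ± 0.33 and -1.83 ± 0.45 in WT (adjusted p = 0.0157 and 0.0151, edgeR). Elovl1, which elongates very long saturated chains, was at 68.6 to 156 CPM over all libraries and was not called in the main edgeR fit. Lpin1, a phosphatidate phosphatase of triglyceride synthesis (chromosome 12, 16535669 to 16610966), had the widest span of the members. It was at 25.4, 6.80 and 24.2 CPM in WT medium and 0.781, 1.79 and 0.149 CPM in WT LPS, and at 0.786, 0.505 and 0.256 and 7.13, 53.5 and 43.9 CPM in KO medium and KO LPS. The 6 low libraries held 2 to 38 reads of the gene. Among the high libraries, WT medium 2 and KO LPS 1 were several times lower than the rest of their groups. Lpin1 fell by 4.30 ± 0.89 in WT (adjusted p = 0.00612, edgeR), and its fold between the labelled KO groups was 6.05 ± 0.99 (0.00116).

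The comparison named in the study's title, KO against WT under LPS, had 14 members higher in the libraries labelled KO LPS and 0 lower, beside 10.4% of all genes called higher and 24.1% called in either direction. The members' median log2 fold was 1.10, against 0.06 for all genes. The largest differences were those of Lpin1 (5.19 ± 0.92), Fasn (3.37 ± 0.26), Dhcr7 (2.95 ± 0.40), Scd2 (2.73 ± 0.52) and Fads1 (2.63 ± 0.47), with adjusted p of 0.00229, 2.2e-05, 5.3e-04, 0.00346 and 0.00229 (edgeR quasi-likelihood). Fads2 followed, then Mvd, Stard4 (2.10 ± 0.36) and Lss (2.03 ± 0.34). By library size only the count was 28, beside 25.3% of all genes called higher and a median of 0.57 over all genes. Nlrc3 in KO LPS went against the label, so the direction is that of the libraries and their label. Elovl6 was lost without WT LPS 1 or 3 (adjusted p = 0.0544 and 0.0642) and Mvd without WT LPS 3 (0.0755, edgeR).

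In medium the same genotype labels gave the opposite direction. KO medium had 11 members lower than WT medium and 0 higher, beside 12.3% of all genes called lower. The median was -0.63 for the members, against -0.02 for all genes. Without WT medium 2, 10 members were lower, beside 16.1% of all genes. The medians were then -0.0011 for the members and -0.0125 for all genes, so the shift of the median depended on that library. The comparison in medium shares no library with the one under LPS, and its 11 members (100%) were all among the 14 higher under LPS (78.6%). Here too the overlap over all genes was not counted. Fads1 was at -2.85 ± 0.47 (adjusted p = 0.0014), Dhcr7 at -2.65 ± 0.40 (8.6e-04), Fasn at -2.31 ± 0.25 (1.1e-04) and Stard4 at -2.18 ± 0.36 (0.00145, edgeR). Acaca and Mvd lost the call without KO medium 1 or 3 (0.0680 to 0.0749), Acaca also without WT medium 1 (0.0758) and Mvd without WT medium 2 (-1.14, 0.0829) and in a fit on the compared groups only (0.0573). By library size only, 27 members were lower, beside 40.5% of all genes, and the median of all genes was -0.85.

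The difference between the LPS effects of the labelled genotypes was tested by the interaction term, which was called for 17 members, all with the labelled KO effect above that of WT, beside 20.5% of all genes. As above, the direction is that of the labels. Besides the 11 members that fell in WT they were Fdps, Sqle, Nsdhl, Scap, Acss2 and Fads2. Fdps did not pass without WT LPS 2 or 3 (0.0531 and 0.0512), and Sqle without WT medium 2, WT LPS 2 or 3, KO medium 1 or 3 or KO LPS 1 (0.0573 to 0.0788, edgeR). The Sqle term was 2.07 without WT medium 2, and without WT medium 2 and KO LPS 1 it was 1.295 for Sqle (0.19) and 1.64 for Fdps (0.0694). With sex as a term the Acss2 term was 1.41 (0.0828, edgeR).

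The crossed comparisons of the label groups, chosen because earlier results of these data showed Nos2 against its labels, called no member with all 12 libraries. Between KO medium and WT LPS, 0 of 13773 genes were called by edgeR (0%) and 0 by DESeq2, with 270 genes (392 by DESeq2) and 0 members at an unadjusted p under 0.05. The estimates for Fasn, Dhcr7 and Stard4 were 0.16 ± 0.24, -0.08 ± 0.39 and 0.05 ± 0.36. Between KO LPS and WT medium, edgeR called 0 genes (0%) and DESeq2 41, none of them a member, with 1135 genes (1456 by DESeq2) at an unadjusted p under 0.05. Among these 1135 were 3 members, Fasn (0.89 ± 0.23), Fads2 (1.46 ± 0.44) and Srebf1 (0.60 ± 0.25), with adjusted p of 0.552, 0.552 and 0.588 (edgeR). The 3 KO LPS libraries lay above all 3 of WT medium for each of these genes. Without KO LPS 1, edgeR called 245 genes (1.72%) in this comparison, among them the member Fads2 (1.80, adjusted p = 0.0463). Without WT medium 2 and KO LPS 1 it called 249 (1.75%), and with no filter 99 (0.366%), with no member among them. Without WT medium 2 it called 0, with 1810 genes and 11 members at an unadjusted p under 0.05. A p that misses the threshold does not show that the groups are alike.

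**Figure D4:**
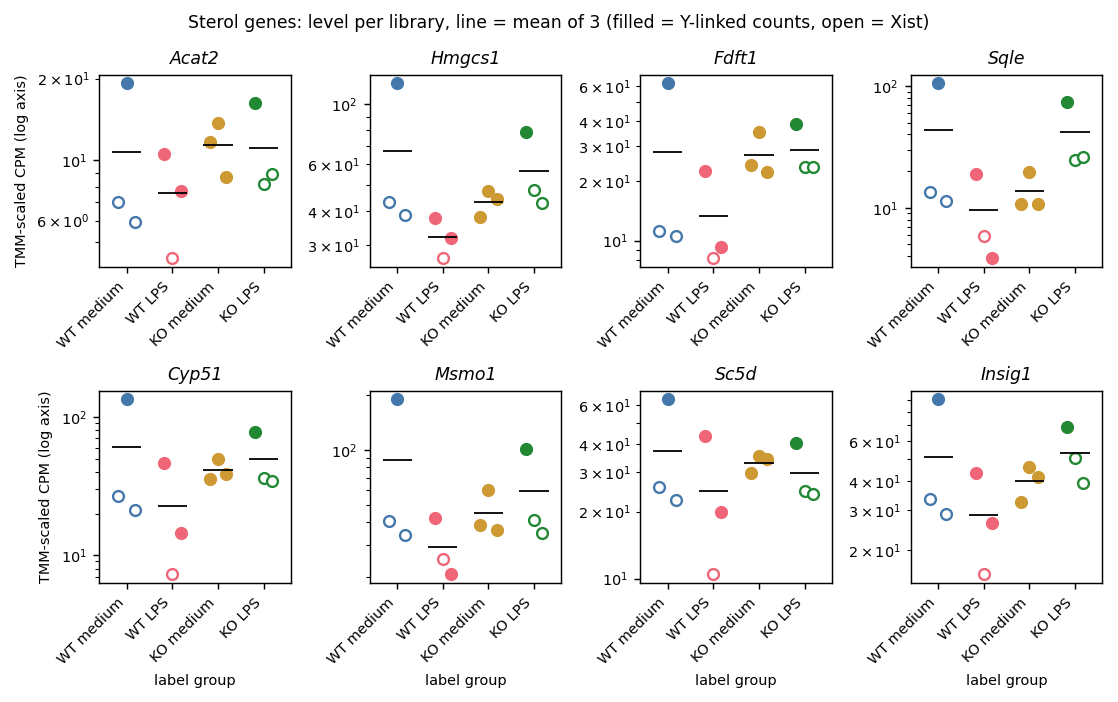
Level of 8 sterol genes in every library (points, log axis in TMM-scaled CPM) by label group, with a line at the mean of 3; filled points are libraries with Y-linked counts and open points those with Xist. In WT medium and KO LPS the single filled point is above both open ones in every panel. All 8 genes are among the 11 members called higher in male libraries, so the panels are no separate evidence of that difference.

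The sterol enzymes also varied widely within the label groups. Of the 18 enzymes from acetyl-CoA to cholesterol, 14 were not called in any pairwise comparison of labels in the main edgeR fit. WT medium 2 was the highest WT medium library for all 18, at a median of 3.21 times the mean of the other WT medium libraries, and KO LPS 1 the highest KO LPS library for 17, at a median of 1.65 times. In WT medium 2, Sqle stood at 8.52 times the mean of the other 2 libraries, Fdps at 6.28, Fdft1 at 5.69, Cyp51 at 5.58 and Msmo1 at 5.10 times. In KO LPS 1 the corresponding ratios were 2.94 for Sqle and 2.19 for Cyp51, with Idi1 at 4.60. Dhcr7 was the exception in KO LPS 1, at 0.780 times. The 13 genes of fatty acid synthesis, desaturation and elongation were mixed, with a median ratio of 1.23 in WT medium 2 and 0.621 in KO LPS 1. In WT medium 2, 8 of the 13 were above the mean of the other libraries, among them Scd1 (2.49 times), Scd2 (2.25), Elovl1 (2.004) and Elovl6 (1.56), and Lpin1 was at 0.274 times. In KO LPS 1, 3 of the 13 were above it, Me1 (2.52 times), Elovl6 (2.10) and Elovl1 (1.32), and Lpin1 was at 0.146 times.

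Those libraries stood apart in other ways. Both had Y-linked counts and the others of their groups had Xist. Of the 7 macrophage markers, 3 were lower in both than in the other libraries of their groups: Adgre1 at 353 and 464 CPM, against 1120.5 to 1470.1 CPM in the other WT medium and KO LPS libraries, Mertk at 29.3 and 35.7 CPM against 111 to 144 CPM, and Csf1r at 1239 and 1624 CPM against 2599 to 3453 CPM. The other 4 did not follow: Lyz2, Itgam, Fcgr1 and Cd68 were highest of the group in WT medium 2 (Lyz2 at 27477 CPM), and in KO LPS 1 Itgam was highest while Lyz2, Fcgr1 and Cd68 lay within the range of the others. The LXR targets Abca1 and Mylip were lower in them too, Abca1 at 82.6 and 96.0 CPM against 336 to 432 CPM and Mylip at 16.7 and 39.1 CPM against 87.3 to 91.6 CPM. Abcg1 was lower in raw reads, 763 against 5259 and 3481 in WT medium and 1563 against 5833 and 6314 in KO LPS. Srebf1, also an LXR target, did not follow in WT medium 2, at 1.28 times the mean of the other libraries. In KO LPS 1 it was at 0.773 times. WT LPS 1, also male, had higher values than WT LPS 2 and 3 for 17 of the 18 enzymes, but WT LPS 3 is male as well and was the lowest of the group for 11. The deposited column names of WT LPS 1 and WT medium 2 share a number whose meaning is not given, so a shared source is possible and was not tested. Their residuals over all genes tested correlated at r = 0.615. Those of WT medium 2 and KO LPS 1, with no shared number, correlated at 0.651.

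Sex was put into the fit as a term, a comparison added after the data were seen. Between male and female libraries at equal label group, 11 members were higher in males (29.7%, beside 17.6% of all genes) and 3 lower (beside 13.9% of all genes). Among the 18 sterol enzymes, 10 were higher (55.6%) and 0 lower. The 11 were Acat2, Hmgcs1, Pmvk, Fdps, Fdft1, Sqle, Cyp51, Msmo1, Hsd17b7, Sc5d and Insig1, and the 3 were Acly, Fads1 and Lpin1. Cyp51 was at 1.93 ± 0.34 (adjusted p = 0.0035), Acat2 at 1.20 ± 0.21 (0.00356), Sc5d at 1.25 ± 0.25 (0.00539) and Lpin1 at -2.23 ± 0.36 (0.00242, edgeR). Without WT medium 2 the counts were 3 higher (Cyp51, Acat2 and Sc5d) and 2 lower (Lpin1 and Scd2), while the genes called in either direction went from 31.5% to 9.6% of all tested. The folds of the lost calls became smaller for the sterol genes (Sqle 1.26, Fdps 0.73, Insig1 0.87) and larger for Fads1 (-1.11) and Acly (-0.65). Without WT LPS 3 there were 17 higher, beside 18.9% of all genes. Without WT medium 1 or KO LPS 1 there was 1 lower, beside 8.67% and 9.58% of all genes. Sex and other differences between these libraries cannot be told apart here. With sex as a term, the falls with LPS in WT numbered 19 in place of 11, while the genes called lower went from 6.46% to 10.6% of all tested, the added ones being Acat2, Hmgcs1, Fdps, Sqle, Cyp51, Msmo1, Sc5d and Insig1. Their folds then lay between -2.16 for Sqle (adjusted p = 0.0155) and -0.79 for Acat2 (0.0429, edgeR).

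Levels between genes can be set side by side only per length, in the deposited FPKM (fragments per kilobase at equal library totals, not TMM-scaled). In WT medium Elovl1 was highest at 46.8 ± 13.3 FPKM, followed by Fads1 (27.6 ± 6.99), Acly (27.4 ± 7.87), Ebp (20.6 ± 5.17) and Insig1 (20.2 ± 10.6; SD, n = 3 each), and between neighbours in this order the ranges of mean ± SD overlap. Fasn itself was at 4.44 ± 0.341 FPKM. At the lower end stood Fdps (0.589 ± 0.579), Elovl6 (0.762 ± 0.112), Acss2 (0.788 ± 0.188) and Tm7sf2 (0.81 ± 0.28), again with overlapping ranges. In WT LPS Elovl1 was still first at 28.6 ± 5.53 FPKM, with Acly next at 16.2 ± 6.55, while Fads1 had dropped to 3.65 ± 3.09 FPKM.

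A list of 35 other genes of these pathways (among them fatty acyl-CoA ligases, partners of elongation, the SREBP proteases and ubiquitin ligases of sterol control) had 30 that passed the filter. With LPS in WT, 5 of them rose and 3 fell (16.7% and 10.0%, beside 11.9% and 6.46% of all genes), with a median of 0.11. Between KO LPS and KO medium 7 were higher and 5 lower (23.3% and 16.7%, beside 15.1% and 15.3% of all genes). The rises included Acsl1, a fatty acyl-CoA ligase, by 4.09 ± 0.39 (adjusted p = 7.5e-05), and Rnf139, a ubiquitin ligase of the endoplasmic reticulum, by 1.45 ± 0.24 (0.0019). Acsl3, another ligase, fell by 1.91 ± 0.43 (0.0096) and Mid1ip1, a known activator of acetyl-CoA carboxylase, by 1.25 ± 0.32 (0.0173, edgeR). Ch25h, which makes 25-hydroxycholesterol, a sterol known to block SREBP processing, was at 0.341, 5.34 and 0.794 CPM in WT medium and 211, 61.01 and 140.5 CPM in WT LPS. It was at 189, 215 and 235 CPM in KO medium and 5.30, 0.616 and 0.345 CPM in KO LPS, so it was high in the groups in which Fasn and Dhcr7 were low. Nos2 had the same high groups, and a link between Ch25h and the levels of the members was not tested. Ch25h rose by 6.05 ± 1.18 in WT (adjusted p = 0.00463, edgeR). The LXR gene Nr1h3 and its targets Abca1, Abcg1 and Mylip were not called with LPS in WT (0.62 ± 0.50, 0.23 ± 0.62, -0.17 ± 0.50 and -0.81 ± 0.61, with adjusted p between 0.4 and 0.854, edgeR).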

How the data were processed

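The authors deposited raw counts per gene, whole numbers not normalized, and FPKM values that the authors computed. Checked on 6442 genes with at least 100 counts in every library, the deposited FPKM were those counts scaled per gene and library total, to within 0.0848%. The build is mm10, per the submitters' processing notes. For the aligner, the counter, the strand setting and the annotation: not given in the sources used here. Samples were grouped by their labels and columns matched to samples by their description. All genes entered 1 edgeR 4.0.16 fit under R 4.3.3 (filterByExpr, TMM factors, glmQLFit, glmQLFTest), with 1 mean per group over 12 libraries, and p-values were adjusted by Benjamini-Hochberg over the 13773 genes tested; a gene was called under 0.05. The SE was derived from the F statistic, and the script was tested on simulated data. Totals of 13082947 to 20960505 counts put 3 counts at 0.143 to 0.229 CPM before TMM scaling, which covers counting error only. Positions are from GENCODE M21, counted from 1. Alternatives were DESeq2 1.42.0, library size only, upper-quartile factors, no filter, compared groups only, the replicate block, sex as a term and each library left out. The members and lists were chosen with earlier results of these data known. Named were all members; those called in a pairwise comparison got their level in every library, and full statistics went to at most the 10 of smallest p. Folds of uncalled members (Sqle, Cyp51, Msmo1, Srebf1, Me1, Scd1, Fads2 in WT), of fits without a library, of the crossed and sex comparisons and of the other pathway genes were chosen after their values were seen.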

Additional observations from a re-analysis of the deposited data

Results flagged for a closer look

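The LPS effect differed between the labelled genotypes for 17 members by the interaction term (labelled KO minus WT, log2, edgeR quasi-likelihood with Benjamini-Hochberg adjustment, n = 3 libraries per group). In the sterol branch the difference was 5.60 for Dhcr7, 3.44 for Lss, 4.21 for Mvd, 1.38 for Nsdhl, 3.21 for Fdps and 3.79 for Sqle. Without WT medium 2 the Sqle value was 2.07 and not called (adjusted p = 0.0788), and without WT medium 2 and KO LPS 1 the values were 1.295 for Sqle (0.19) and 1.64 for Fdps (0.0694). Among the regulators and carriers it was 4.28 for Stard4 and 1.51 for Scap. In fatty acid synthesis it was 5.68 for Fasn, 2.94 for Acaca and 2.21 for Acss2, which was 1.41 and not called with sex as a term (0.0828). For desaturation, elongation and triglyceride synthesis it was 5.49 for Fads1, 3.08 for Fads2, 5.00 for Scd2, 2.97 for Elovl5, 3.93 for Elovl6 and 10.35 for Lpin1, whose low groups held few reads. Nlrc3 and Nos2 went against the KO labels in these libraries, and what part the labels have in these differences was not tested.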

How the results depend on the processing

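With library size only, 23 members were lower in WT LPS than in WT medium, 28 higher in KO LPS than in WT LPS, 27 lower in KO medium than in WT medium, 27 higher in KO LPS than in KO medium, 35 had a called interaction and 5 were lower in males. In the same fits 23.2%, 25.3%, 40.5%, 38.6%, 47.9% and 20.9% of all genes were called in those directions. With sex as a term, 19, 25 and 17 members were called in the first 3 of these, and 29 in the interaction, beside 10.6%, 14.9%, 10.4% and 19.2% of all genes. DESeq2 called 15, 18, 11 and 15 members in the first 4 and 19 in the interaction. Of all genes it called 11.1%, 14.6%, 16.8%, 18.7% and 24% in those directions. Leaving out 1 library gave 6 to 12 members lower with LPS in WT, beside 2.21% to 8.3% of all genes. The other ranges follow with those of all genes in brackets. For KO medium against WT medium, 9 to 12 were lower (6.03% to 16.1%). For KO LPS against WT LPS, 10 to 19 were higher and 0 to 1 lower (3.96% to 13% and 8.05% to 15.7%). For KO LPS against KO medium, 12 to 17 were higher and 0 to 1 lower (7.86% to 18.3% and 9.66% to 17.5%). For KO LPS against WT medium, 0 to 1 were higher (0% to 0.982%). In the interaction, 15 to 20 were higher and 0 to 1 lower (16.2% to 22.1% and 16.7% to 22.3%). In males, 3 to 17 were higher and 1 to 3 lower (4.26% to 19.8% and 5.34% to 16.1%). A fit without WT medium 2 and KO LPS 1 together was chosen after the data were seen. There 1 member was lower in KO LPS than in WT LPS, 1 lower than in KO medium and 1 lower in the interaction. Of all genes, 20.2%, 22.5% and 26.9% were lower in these. In KO medium 1 member was higher than in WT medium, beside 20.6% of all genes. No direction of a called value reversed under any alternative run. By replicate number the libraries did not pair: 8 of 18 pairs of residuals correlated above 0.1, with r from -0.66 to 0.615. By the number in the deposited column names, WT medium 2 goes with WT LPS 1 (r = 0.615) and WT medium 3 with WT LPS 2 (0.468). Each of these pairs matches in sex. WT medium 1 and KO LPS 2, also of matching sex but with no shared number, reached 0.674. What the number stands for is not given, and no fit with these pairs was run. With the replicate block, 11 members were lower in WT LPS than in WT medium and 14 higher in KO LPS than in WT LPS. In KO medium 11 were lower than in WT medium, in KO LPS 14 were higher than in KO medium, and 17 were higher in the interaction. Of all genes, 5.05%, 8.79%, 10.3%, 12.7% and 19.1% were called in those directions. The call lost was that of Acly (adjusted p = 0.0719, edgeR). Counts were low for Lpin1, Fdps and Elovl6 in WT LPS and KO medium, which limits the precision of their folds.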
